A study of Homo sapiens with 6 samples.

Results

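The genes described here supply cysteine and make, recycle, use and break down glutathione. They were chosen by gene symbol, with earlier results of these data known, and matched through Ensembl identifiers. They comprised 10 of the 20308 genes in the deposited tables. CTH, CBS and AHCY stand for transsulfuration and the step before it, SLC7A11 for cystine import, GCLC, GCLM and GSS for glutathione synthesis, GSR and GPX4 for its recycling and use, and CHAC1 for its breakdown. The RNA sequenced came from LNCaP-AI cells, an androgen-independent prostate cancer line used as a model of castration-resistant prostate cancer. In the shMETTL1 group, METTL1, the catalytic subunit of the enzyme that places N7-methylguanosine on RNA, was stably silenced with a lentiviral hairpin, and in the shscramble group cells carried a scrambled hairpin. Each group had 3 libraries, all 6 carried the treatment label Androgen Deprivation Therapy, and the control cells therefore shared the androgen-poor culture. Whether replicate libraries were grown as separate cultures is not stated in the labels, so p-values measure the spread between these libraries, which may be technical. Each library had an FPKM value (fragments mapped to a gene, scaled to transcript length and to the depth of the library) and an estimated count for every gene.

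Cysteine is the limiting amino acid for glutathione in most cells, and 2 of the routes that supply it are described here. In transsulfuration, AHCY releases homocysteine from S-adenosylhomocysteine, CBS joins homocysteine to serine as cystathionine, and CTH cleaves cystathionine to cysteine. In the import route, SLC7A11 with its heavy chain SLC3A2 brings in cystine in exchange for glutamate. The GCLC and GCLM subunits of glutamate-cysteine ligase then join cysteine to glutamate, and GSS adds glycine to give glutathione. GPX4 spends glutathione to reduce lipid peroxides, GSR regenerates it from the oxidised form with NADPH, and CHAC1 cleaves it inside the cell. Several of these genes are textbook targets of ATF4, the transcription factor of the amino acid and endoplasmic reticulum stress response, or of NRF2, the antioxidant factor encoded by NFE2L2.

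Across the 6 libraries, the estimated counts summed to between 3389897 and 3604835, and these sums were so alike that the read depth of a library could not be taken from them. METTL1 itself measured 9.02 ± 1.30 FPKM in shMETTL1 cells and 17.8 ± 3.6 FPKM in shscramble cells (SD, n = 3 in each group), and its groups did not overlap. Its mean estimated counts were low, 19.5 in shMETTL1 and 50.1 in shscramble. The gene was called lower by edgeR (log2 fold change -1.36, adjusted p = 0.0368), in 8 of 11 count fits. It was not called by limma (log2 fold change -0.93, adjusted p = 0.127). All 9 luminal prostate markers were above 1 FPKM in at least 1 library, with summed levels of 1955 to 2218 FPKM in shMETTL1 and 2472 to 2532 FPKM in shscramble. Of 5 leukocyte markers, 3 were listed at 0 in all libraries, PTPRC and CD3E among them, and the sums, 5.997 to 8.109 FPKM in shMETTL1 and 11.8 to 16.8 FPKM in shscramble, came almost wholly from CD68. Of 6 fibroblast markers 5 were under 1 FPKM in every library, DCN and LUM at 0, with sums of 5.18 to 11.2 and 7.94 to 13.5 FPKM. The 3 basal epithelial markers, KRT5 at 0 among them, summed to at most 1.599 and 4.72 FPKM. The part of the luminal shift in the results was not tested. In bulk RNA, fewer cells that express a gene and less RNA of it per cell cannot be told apart.

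The sequence upstream of the start site is shown for 3 genes whose levels are described next, CTH, CHAC1 and GCLM, because the ATF4 and NRF2 response elements can be looked for there. Each window is taken from the RefSeq reference (GRCh38.p14), 250 bases before and 50 after the annotated start, read 5′ to 3′ on the strand of the gene. Capitals mark a match on either strand to the C/EBP-ATF response element TGATGNAAN or to the antioxidant response element TGACNNNGC. The CTH window lies at chr1:70411018-70411317 on the plus strand, the CHAC1 window at chr15:40953221-40953520 on the plus strand and the GCLM window at chr1:93909381-93909680 on the minus strand.
CTH: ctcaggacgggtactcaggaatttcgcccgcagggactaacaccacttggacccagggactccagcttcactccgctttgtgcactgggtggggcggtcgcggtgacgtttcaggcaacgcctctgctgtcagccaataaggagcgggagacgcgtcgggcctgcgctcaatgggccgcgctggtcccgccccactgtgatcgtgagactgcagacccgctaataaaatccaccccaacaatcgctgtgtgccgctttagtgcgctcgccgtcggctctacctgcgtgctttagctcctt
CHAC1: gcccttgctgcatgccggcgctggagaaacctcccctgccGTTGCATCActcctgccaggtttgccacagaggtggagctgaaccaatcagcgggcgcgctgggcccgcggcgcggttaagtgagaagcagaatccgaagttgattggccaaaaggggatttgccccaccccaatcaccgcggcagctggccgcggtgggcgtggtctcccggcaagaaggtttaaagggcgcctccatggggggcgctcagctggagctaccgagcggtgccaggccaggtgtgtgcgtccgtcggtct
GCLM: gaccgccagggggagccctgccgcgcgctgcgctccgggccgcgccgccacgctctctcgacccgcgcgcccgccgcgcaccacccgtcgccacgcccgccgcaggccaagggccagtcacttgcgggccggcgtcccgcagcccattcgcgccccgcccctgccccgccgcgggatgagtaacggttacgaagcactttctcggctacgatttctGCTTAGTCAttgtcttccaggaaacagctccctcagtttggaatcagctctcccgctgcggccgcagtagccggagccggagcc
The CHAC1 capitals read TGATGCAAC on the opposite strand, from -210 to -202 relative to the start site. The GCLM capitals read TGACTAAGC on the opposite strand, from -34 to -26. Neither motif was found in the CTH window. RefSeq windows were at hand for 7 of the 10 genes, 13 windows in all, for CTH, CBS, GCLC, GCLM, GPX4, CHAC1 and AHCY. Among these genes 1 held the C/EBP-ATF element, and 2, GCLM and CBS, held the antioxidant element. Over all 35116 promoter windows of the same length, 3.61% held the first motif and 13.3% the second. These are shares of windows, and CBS, GPX4 and AHCY had 3 windows each, so the counts by gene cannot be set directly against them. A match describes letters, not binding.

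Of the 10 genes, 5 were higher in shMETTL1 cells by edgeR's quasi-likelihood test on the estimated counts, at an adjusted p under 0.05 over all 11248 genes tested, and none was lower. These were CTH, SLC7A11, GCLC, GCLM and CHAC1, which cover the last transsulfuration step, cystine import, the first synthesis step and breakdown. The same test called 2.68% of all genes higher and 3.65% lower. DESeq2 called the same 5 genes on the same estimated counts, whose read depth is unknown, beside 2.8% of all genes higher. The main test, limma on log2(FPKM + 0.5), called far fewer genes. By limma CTH alone was higher and none was lower, against 0.0494% of 12156 genes called higher and 0.074% called lower. At an unadjusted p under 0.05 in the limma fit, the 5 genes were again the ones higher and none was lower, where 7.37% of all genes were higher and 6.8% lower. The groups did not overlap by FPKM for 4 genes, CTH, SLC7A11, GCLC and CHAC1, all higher in shMETTL1, whereas 10.5% of all genes were higher without overlap and 9.33% lower. The median log2 fold change was 0.50 over the 10 genes and 0.02 over all genes in the limma fit. Because the genes were chosen with earlier results of these data known, these comparisons with all genes describe the set and do not test it.

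**Figure D1:**
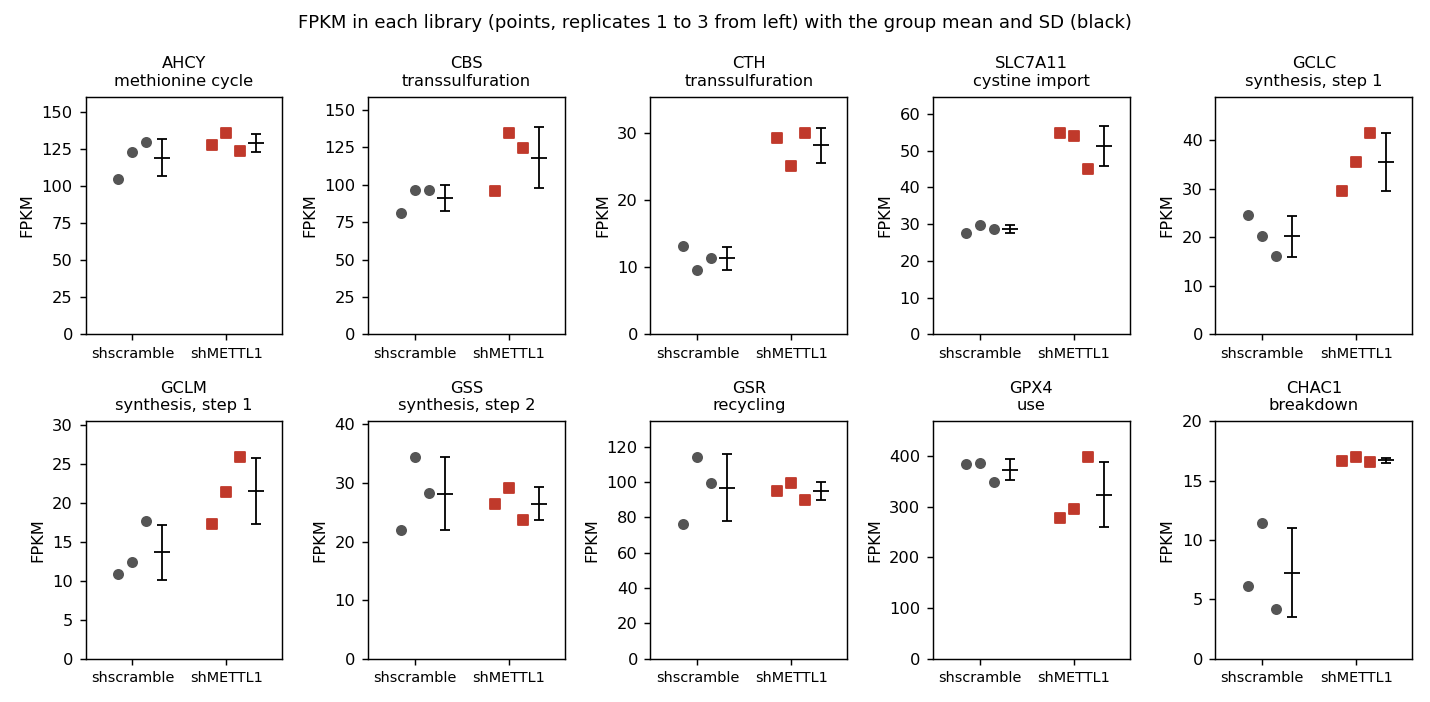
FPKM of each of the 10 genes in the 3 shscramble (grey circles) and 3 shMETTL1 (red squares) libraries, on linear axes from 0, with the group mean and SD in black. The points of CTH, SLC7A11, GCLC and CHAC1 separate completely between the groups, those of GCLM nearly do, and those of AHCY, CBS, GSS, GSR and GPX4 overlap.

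CTH, the cystathionine gamma-lyase that releases cysteine (ENSG00000116761, chromosome 1, 70411218 to 70439851 on the plus strand, GRCh38), measured 29.4, 25.2 and 30.1 FPKM in shMETTL1 replicates 1, 2 and 3. In shscramble replicates 1, 2 and 3 it measured 13.1, 9.67 and 11.4 FPKM. The lowest shMETTL1 library thus stood well above the highest shscramble library. The group means were 28.2 ± 2.6 and 11.4 ± 1.7 FPKM (SD, n = 3), a ratio of 2.48. The limma log2 fold change was 1.28 (SE 0.18, adjusted p = 0.0494 by limma), at the edge of the threshold, and over 16 limma fits its adjusted p ran from 9.58e-04 to 0.214, with 5 under the threshold. The edgeR log2 fold change was 1.14 (adjusted p = 0.00142 by edgeR), and all 11 count fits called it. Permuting the 6 libraries gave an exact p of 0.1, and no smaller value is possible with 3 in each group.

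CBS, which feeds CTH with cystathionine (ENSG00000160200, chromosome 21), measured 95.6, 134.6 and 124.3 FPKM in shMETTL1 and 81.3, 96.3 and 96.3 FPKM in shscramble. Its shMETTL1 replicate 1 lay just below the 2 higher control libraries, so the groups overlapped. The log2 fold change was 0.36 in the limma fit, with a 95% interval from -0.01 to 0.73 (adjusted p = 0.363 by limma) and 0.27 by edgeR (adjusted p = 0.194). AHCY, which supplies the homocysteine (ENSG00000101444, chromosome 20), measured 127.9, 135.8 and 123.4 FPKM in shMETTL1 and 105.0, 123.1 and 129.5 FPKM in shscramble. Its limma log2 fold change was 0.12, with a 95% interval from -0.19 to 0.42. The annotation lists 6 processed pseudogene copies of AHCY, none of them in the tables, so reads from copies could have been counted to the gene. Within each library, the ratio of CTH to CBS in FPKM was 0.307, 0.187 and 0.242 in shMETTL1 and 0.161, 0.1004 and 0.118 in shscramble. The ratio was higher in all 3 shMETTL1 libraries, by 0.95 on the log2 scale (exact permutation p = 0.1, 0.3 after adjustment over 3 ratios).

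SLC7A11, the cystine carrier subunit (ENSG00000151012, chromosome 4), measured 54.8, 54.0 and 44.9 FPKM in shMETTL1 and 27.7, 29.9 and 28.8 FPKM in shscramble. The controls lay close together, and every shMETTL1 library was above them. The means were 51.2 ± 5.5 and 28.8 ± 1.1 FPKM (SD, n = 3), a ratio of 1.78. The log2 fold change was 0.82 (SE 0.15, adjusted p = 0.0749 by limma) and 0.77 by edgeR (adjusted p = 5.48e-04), and all 11 count fits called the gene. SLC3A2, the heavy chain that SLC7A11 shares with other amino acid carriers, measured 186.2, 219.2 and 163.7 FPKM in shMETTL1 and 86.6, 147.1 and 125.7 FPKM in shscramble. It was also higher by edgeR (log2 fold change 0.56, adjusted p = 0.0299), although only 6 of 11 count fits called it, and not by limma (adjusted p = 0.198). The SLC7A11 to SLC3A2 ratio was 0.272 ± 0.024 in shMETTL1 and 0.251 ± 0.061 in shscramble (SD, n = 3), a log2 difference of 0.14 (exact permutation p = 0.6).

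GCLC, the catalytic subunit of glutamate-cysteine ligase (ENSG00000001084, chromosome 6), measured 29.4, 35.5 and 41.5 FPKM in shMETTL1 and 24.5, 20.2 and 16.1 FPKM in shscramble. No library of one group reached the other, although the spread within each group was wide. The log2 fold change was 0.80 (SE 0.21, adjusted p = 0.157 by limma) and 1.04 by edgeR (adjusted p = 0.00319). GCLM, the modifier subunit that raises the affinity of the enzyme for glutamate (ENSG00000023909, chromosome 1), measured 17.3, 21.4 and 25.9 FPKM in shMETTL1 and 10.95, 12.43 and 17.70 FPKM in shscramble. Here shMETTL1 replicate 1 lay just under shscramble replicate 3. By estimated count the GCLM groups did not overlap, with 320, 347 and 327 in shMETTL1 and 193, 201 and 234 in shscramble. Its log2 fold change was 0.64 (SE 0.23, adjusted p = 0.276 by limma) and 0.61 by edgeR (adjusted p = 0.0105). The GCLM call was lost without shMETTL1 replicate 2, with an adjusted p of 0.0635 by edgeR, while the GCLC call held in all 11 count fits.

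The ratio of GCLC to GCLM in FPKM was 1.70, 1.655 and 1.602 in shMETTL1 and 2.24, 1.63 and 0.908 in shscramble. The means were 1.65 ± 0.05 and 1.59 ± 0.66 (SD, n = 3), a difference within the spread between libraries (exact permutation p = 0.8), and the difference in spread was not tested. On the log2 scale the ratio differed by 0.15 by FPKM and by 0.47 by estimated count (exact permutation p = 0.3 for the counts). GSS, the second enzyme of synthesis (ENSG00000100983, chromosome 20), measured 26.5, 29.2 and 23.6 FPKM in shMETTL1 and 21.9, 34.4 and 28.3 FPKM in shscramble. All 3 shMETTL1 values fell inside the control range. The limma log2 fold change was -0.07, with a 95% interval from -0.52 to 0.37, and the adjusted p was 0.896 by limma and 0.635 by edgeR.

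GSR, the glutathione reductase (ENSG00000104687), measured 95.1, 99.7 and 89.9 FPKM in shMETTL1 and 76.5, 114.1 and 99.5 FPKM in shscramble, so the knockdown values again lay within the control range. Its limma log2 fold change was -0.01, with a 95% interval from -0.38 to 0.37 (adjusted p = 0.987 by limma). GPX4, the lipid hydroperoxide peroxidase (ENSG00000167468, chromosome 19), had the highest FPKM of the 10 genes, with 277.7, 295.9 and 397.3 FPKM in shMETTL1 and 383.5, 385.3 and 348.6 FPKM in shscramble. The third shMETTL1 library was above all controls and the other two were below them. Its log2 fold change was -0.22, with a 95% interval from -0.57 to 0.13 (adjusted p = 0.547 by limma), and the estimated counts gave -0.09 (adjusted p = 0.671 by edgeR). For GSS, GSR and GPX4 the upper ends of the intervals were 0.37, 0.37 and 0.13. The lower ends for CTH, SLC7A11, CHAC1, GCLC and GCLM were 0.86, 0.48, 0.55, 0.34 and 0.12, so the intervals of GCLC and GCLM overlapped with those of GSS and GSR, and that of GCLM also with that of GPX4. The interval of CBS reached 0.73 and overlapped with those of SLC7A11, CHAC1, GCLC and GCLM. That of AHCY reached 0.42 and overlapped with those of GCLC and GCLM.

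CHAC1, the gamma-glutamylcyclotransferase that degrades glutathione in the cytosol (ENSG00000128965, chromosome 15), measured 16.6, 17.0 and 16.6 FPKM in shMETTL1 and 6.14, 11.4 and 4.20 FPKM in shscramble. The shMETTL1 libraries were nearly equal, and shscramble replicate 2 stood above the other controls. The ratio of FPKM means was 2.31, with a log2 fold change of 1.26 (SE 0.32, adjusted p = 0.146 by limma). By estimated count the difference was larger, with 105, 121 and 119 in shMETTL1 and 28.0, 45.2 and 21.4 in shscramble, a ratio of means of 3.64. The edgeR log2 fold change was 1.83 (adjusted p = 3.87e-04), the largest of the 10 genes by that test, and all 11 count fits called it. Without shscramble replicate 2, limma called CHAC1 (log2 fold change 1.62, adjusted p = 0.0307 by limma) and SLC7A11 (0.84, adjusted p = 0.0463 by limma) in addition to CTH.

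**Figure D2:**
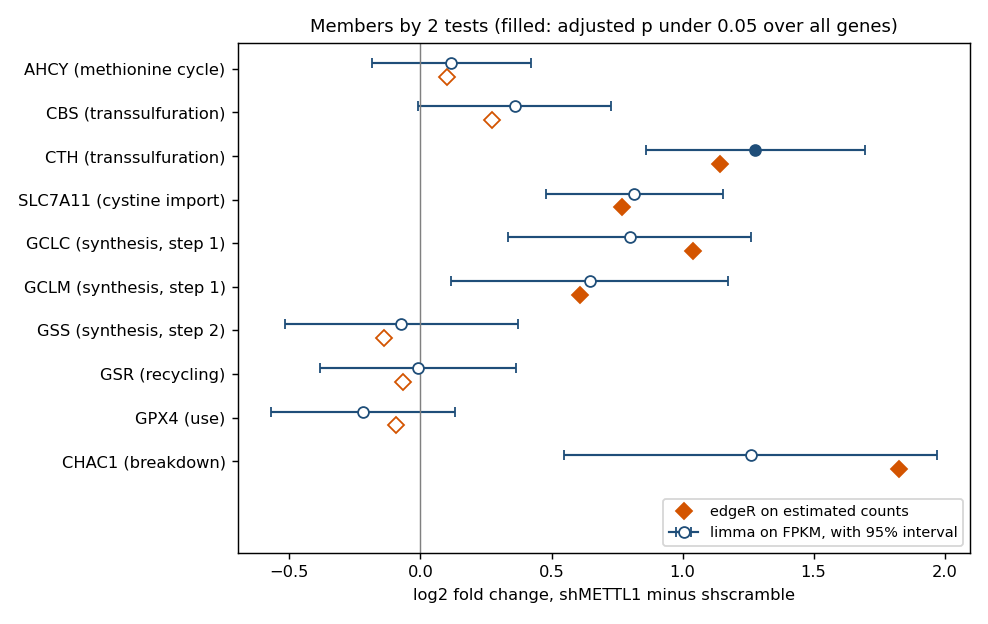
The 10 genes' log2 fold changes between shMETTL1 and shscramble in pathway order by limma on FPKM (blue circles with 95% intervals) and by edgeR on estimated counts (orange diamonds), filled where the adjusted p over all genes was under 0.05. Both estimates lie above 0 for CTH, SLC7A11, GCLC, GCLM and CHAC1 with intervals that leave out 0, and the largest gap between the estimates is that of CHAC1, at 1.26 and 1.83.

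The gap between FPKM and count for CHAC1 can be read as a length, because FPKM divides the count by a transcript length that the authors' software estimated for each library. The count divided by FPKM and by the library's total count gave an implied length for CHAC1 of 1.75, 1.98 and 2.05 kb in shMETTL1 and 1.35, 1.12 and 1.47 kb in shscramble. The groups did not overlap, and the mean was 1.47 times higher in shMETTL1. Among 11802 genes with values in all libraries, 1.601% had a ratio at least as high, the median ratio was 0.972, and 10.8% had groups that did not overlap. For GCLC the implied length was 2.78, 2.34 and 1.73 kb in shMETTL1 and 2.05, 1.45 and 2.14 kb in shscramble, so it varied as much within a group as between groups. For CTH it was 1.82, 1.87 and 1.81 kb in shMETTL1 and 2.16, 2.02 and 1.94 kb in shscramble, a ratio of 0.899. SLC7A11, GSS, GSR and AHCY varied by at most 1.10-fold between any libraries. The fold changes of CHAC1 and GCLC differed most between the measures, and which transcript forms were present was not tested.

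**Figure D3:**
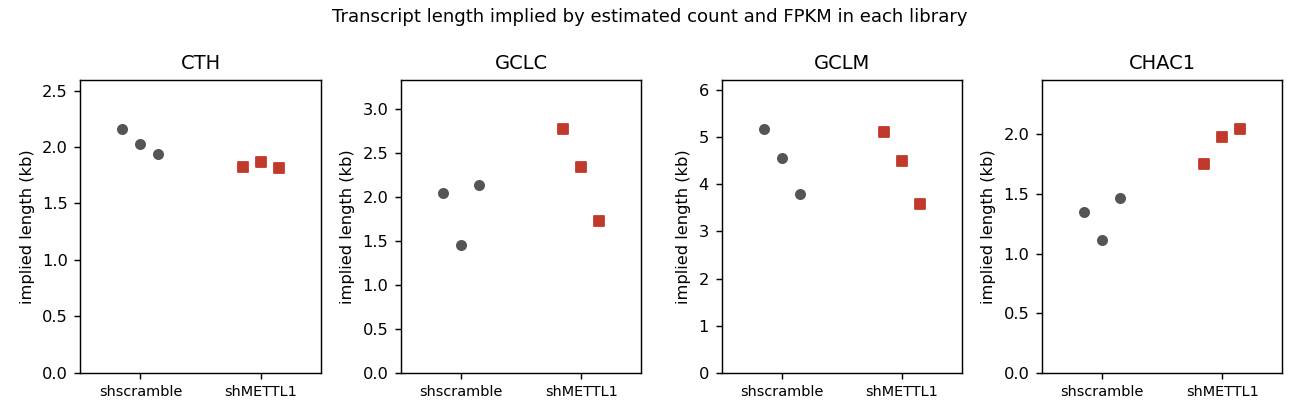
Transcript length in kilobases implied by the estimated count and the FPKM of a gene, in each shscramble (grey circles) and shMETTL1 (red squares) library, replicates 1 to 3 from left. The CHAC1 points separate, with the shMETTL1 libraries between 1.75 and 2.05 kb and the controls between 1.12 and 1.47 kb, and the CTH points separate the other way.

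By FPKM, which is per length, the order of the 10 genes in shscramble cells ran from GPX4 at 372 through AHCY at 119, GSR at 96.7 and CBS at 91.3 to SLC7A11 at 28.8, GSS at 28.2, GCLC at 20.3, GCLM at 13.7, CTH at 11.4 and CHAC1 at 7.25. Only GPX4 against AHCY and CBS against SLC7A11 were neighbours whose libraries did not overlap. In shMETTL1 cells CTH, at 28.2 FPKM, ranked 7 rather than 9, and its libraries overlapped with those of GCLC at 35.5 and GSS at 26.4. SLC7A11 at 51.2 FPKM stood clear of GCLC below it, and CHAC1 at 16.7 remained last, with all libraries below those of GCLM. The order rests on the estimated lengths as well as on the reads.

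The other genes of the pathway were taken from 10 lists with 79 symbols, also chosen with earlier results known. Of these symbols 78 were in the tables and 55 passed the FPKM filter. limma called none of the 55, although 9 were higher and 1 was lower with an unadjusted p under 0.05. Over all 12156 genes tested by limma, 7.37% were higher and 6.8% lower at that unadjusted threshold. After adjustment limma called 0.0494% of all genes higher and 0.074% lower. By edgeR, 6 of 52 were higher and none was lower, beside 302 of 11248 genes higher and 410 lower overall. Log2 fold changes were positive for 36 of the 55, with a median of 0.16, and for 6376 of all 12156 genes tested, with a median of 0.02. The called genes included SLC3A2, CNDP2, IDH1, ATF4 and DDIT3, and without single libraries the number ran from 0 to 10, whereas edgeR called CTH, SLC7A11, GCLC and CHAC1 whichever single library was left out. SLC3A2 was the only called gene of the 3 cystine and cysteine carriers tested.

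Among 4 genes that supply NADPH, the reductant that GSR needs, all had positive log2 fold changes and 2 were called by edgeR. Over all genes tested, edgeR called 2.68% higher. IDH1, the cytosolic isocitrate dehydrogenase, measured 192.6, 184.8 and 164.0 FPKM in shMETTL1 and 115.3, 138.2 and 132.3 FPKM in shscramble (adjusted p = 0.0207 by edgeR), and 7 of 11 count fits called it. ME1, the cytosolic malic enzyme, had groups that did not overlap and a log2 fold change of 0.48 in the limma fit, but an adjusted p of 0.0812 by edgeR. Every shMETTL1 library was above every control for IDH1 and ME1, whereas GSR, the enzyme that spends this NADPH, overlapped.

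In glutathione breakdown, 1 of 7 tested genes was called by edgeR, CNDP2, a dipeptidase that splits cysteinylglycine (log2 fold change 0.39, adjusted p = 0.0442 by edgeR). The share of all genes that edgeR called higher was 2.68%. Only 6 of 11 count fits called CNDP2, its groups overlapped by FPKM, and its limma log2 fold change was 0.20 (adjusted p = 0.594 by limma). CHAC2, the homologue of CHAC1, measured 4.15 ± 1.40 FPKM in shMETTL1 and 1.36 ± 1.03 FPKM in shscramble (SD, n = 3) without overlap, but on mean counts of 19.9 and 6.54 its adjusted p was 0.0890 by edgeR, and 1 of 11 count fits called it. Of 11 glutathione S-transferases tested by limma, 10 of them also by edgeR, none was called. MGST2, a membrane-bound member, measured 36.6, 36.2 and 33.3 FPKM in shMETTL1 and 46.0, 59.6 and 50.6 FPKM in shscramble (adjusted p = 0.0597 by edgeR). Among 4 glutaredoxins none was called. GLRX2 had a limma log2 fold change of 1.203 and GLRX one of -0.68, both with groups that did not overlap. By edgeR the adjusted p of GLRX2 was 0.0697, and 3 of 11 count fits called it. Neither test called a gene of the methionine cycle (8 tested by limma, 6 by edgeR) or of cysteine use and sulfide oxidation (8). The same held for the 2 other glutathione peroxidases and the 4 genes of glutathione transport. In these 4 lists the median log2 fold changes by limma were 0.07, 0.14, 0.25 and -0.25.

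**Figure D4:**
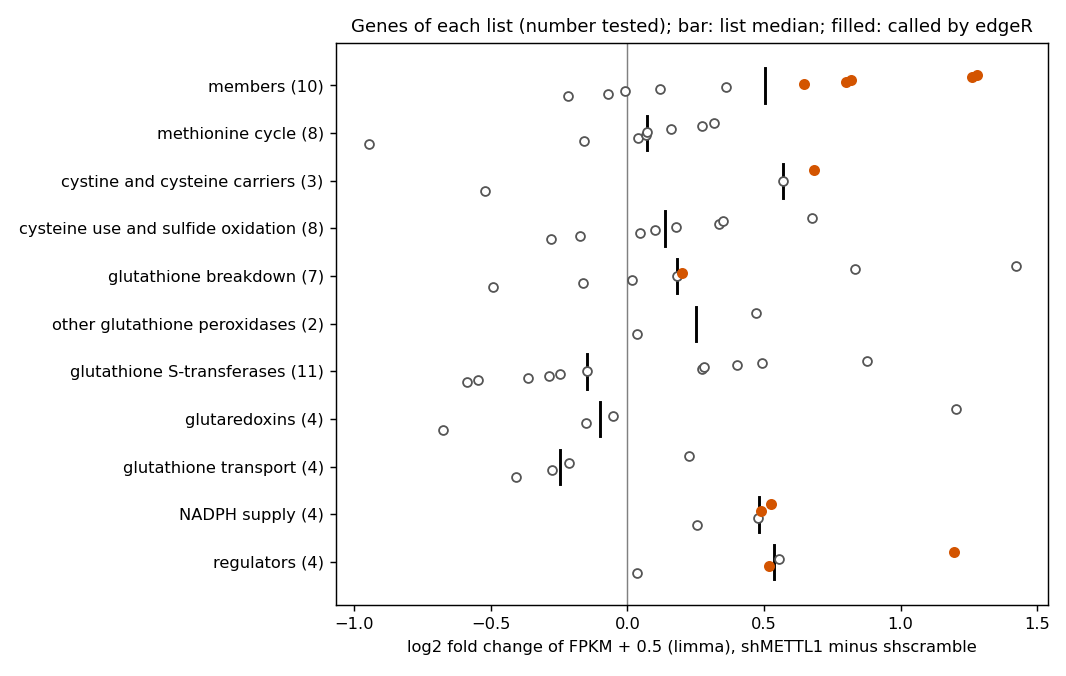
Log2 fold change by limma, shMETTL1 minus shscramble, of every tested gene in the 10-gene set and in each of the 10 pathway lists, with the list median as a black bar and genes called by edgeR filled in orange. The filled points, 5 in the 10-gene set and 6 elsewhere, all lie to the right of 0.

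Of the regulators, ATF4 measured 670.1, 675.1 and 637.0 FPKM in shMETTL1 and 488.0, 422.6 and 475.0 FPKM in shscramble, with a log2 fold change of 0.52 (adjusted p = 0.114 by limma) and 0.45 by edgeR (adjusted p = 0.0272). DDIT3, which encodes CHOP and is induced downstream of ATF4 in stressed cells, measured 74.5, 62.4 and 40.4 FPKM in shMETTL1 and 29.8, 27.6 and 18.3 FPKM in shscramble. It was higher by edgeR (log2 fold change 1.15, adjusted p = 0.00727). For both genes every shMETTL1 library was above every control, and of 11 count fits 7 called ATF4 and 9 called DDIT3. NFE2L2 was at 44.9 ± 9.5 FPKM in shMETTL1 and 44.1 ± 10.1 FPKM in shscramble (SD, n = 3), with a log2 fold change of 0.04 and a 95% interval from -0.45 to 0.52. KEAP1, which holds NRF2 for degradation, measured 33.0, 28.7 and 35.9 FPKM in shMETTL1 and 22.1, 21.8 and 21.8 FPKM in shscramble, without overlap, but its adjusted p was 0.179 by limma and 0.209 by edgeR. ATF4 and NRF2 act as proteins, which these RNA values do not measure.

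The genes whose log2(FPKM + 0.5) followed that of CTH most closely over the 6 libraries, among 11355 genes with a mean of at least 1 FPKM, were GABARAPL1 (Pearson r = 0.994), ABI1 (0.992), COLEC12 (0.988), RDH11 (0.985) and HNRNPF (0.985). All 5 were higher on average in shMETTL1, for example GABARAPL1, an autophagy protein of the ATG8 family, at 41.5 against 25.9 FPKM. None of the 10 genes was among them. With 6 libraries in 2 groups, such correlations describe mainly the group difference, and they share the libraries' scaling.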

How the data were processed

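RNA from 3 shMETTL1 and 3 shscramble LNCaP-AI libraries was analysed from the deposited tables, 1 per library. The authors' FPKM values are scaled to transcript length and library depth. The deposited estimated counts are mostly fractional and were rounded to whole numbers for count tests. Tools named in the submitters' notes are Cuffdiff, Cufflinks, HISAT2 2.0.4 and cutadapt 1.9.3, with build hg19, and gene positions given here are from GENCODE on GRCh38. The main test was limma 3.58.1 (trend and robust prior, R 4.3.3) on log2(FPKM + 0.5) for the 12156 genes whose mean FPKM reached 0.5, a scale that understates changes of low genes. The second was edgeR 4.0.16 (quasi-likelihood, TMM, filterByExpr). DESeq2 1.42.0 was an alternative. Two-sided p-values were adjusted by Benjamini-Hochberg over all genes tested, with calls under 0.05. The genes and lists were chosen with earlier results of these data known. Genes named were the 10, METTL1, SLC3A2, 4 regulators, up to 3 genes per list by limma p and the 5 most like CTH. No pair of libraries shared a nonzero FPKM value for a gene. No counting interval was computed, since depth is unknown. Some genes of the lists are counted but not reported here by name.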

Additional observations from a re-analysis of the deposited data

How the results depend on the processing

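The 5 count calls (CTH, SLC7A11, GCLC, GCLM, CHAC1) kept their direction in every fit tried. The limma count of 1, CTH, did not hold. It was 0 with a pseudocount of 0.1, without the filter, with median-ratio scaling, with quantile normalization and without trend and robust prior, where the adjusted p of CTH ran from 0.05001 to 0.118 by limma, and 5 on log2 CPM of the estimated counts, where pathway genes called rose from 0 to 6. Leaving out single libraries gave 0 to 3 of the 10 genes by limma (3 without shscramble replicate 2, 0 without any other) and 0 to 10 pathway genes by edgeR instead of 6. limma called 15 genes in all, 4 without the filter, 7 without trend and robust prior, 726 on log2 CPM, 3 to 189 without single libraries, and edgeR 712, with 1094 without a filter and 270 to 1989 without single libraries, the highest of each without shscramble replicate 2. The cause was not tested.

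Same-numbered libraries of the 2 groups deviated together with correlations of 0.00, 0.05 and -0.02. With 3 libraries in each group these values cannot show whether the libraries were paired, and the sample titles give only a replicate number. With the replicate number as a block, limma called 0 of the 10 genes and 6 of all genes, and edgeR called 5 of the 10, 7 pathway genes and 1015 of all genes.

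Signs of log2 fold changes that were not called changed as follows. GPX8 was 0.03 by limma, -0.0016 with a pseudocount of 1, -0.15 on log2 CPM and -0.52 to 0.58 without single libraries, and -0.50 by edgeR with -0.93 to 0.44 without single libraries. GSR was 0.0065 after quantile normalization and -0.17 to 0.12 without single libraries by limma and -0.15 to 0.018 by edgeR. Without single libraries, GSS ran from -0.24 to 0.080 and NFE2L2 from -0.16 to 0.18 by limma, MAT2B from -0.059 to 0.15 and ETHE1 from -0.12 to 0.42 by edgeR, and the log2 difference in the GCLC to GCLM ratio from -0.21 to 0.44, lowest without shscramble replicate 3.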
